A study of Mus musculus with 4 samples.

Results

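The neurotransmitter receptor genes of the embryonic mouse cortex were examined in neural progenitor cells (NPCs) and in the young neurons that arise from them. The set was chosen by gene symbol and held 78 of the 23240 rows of the count table. It comprised 4 AMPA, 5 kainate, 2 delta, 7 NMDA and 8 metabotropic glutamate receptor genes, 13 GABA-A and 2 GABA-B receptor genes, 5 glycine, 13 nicotinic, 5 muscarinic and 14 serotonin receptor genes. The RNA came from cortices at embryonic day 15.5. Every embryo carried both a Nestin-GFP reporter, from a heterozygous parent line, and a DCX-mRFP reporter, from a homozygous one, so the 2 groups share both transgenes. NPCs were sorted for green fluorescence, and neurons for green and red fluorescence together. Each group had 2 libraries, called duplicates 1 and 2 in the titles. The labels give no strain and do not say whether duplicates came from separate litters, so the p-values reflect the spread of duplicate libraries alone, which may be technical.

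Receptors for fast transmission are ion channels built from several subunits, each from its own gene, and the choice of subunits sets the channel's kinetics, ion selectivity and drug sensitivity. AMPA, kainate and NMDA receptors pass excitatory current in response to glutamate. GABA-A and glycine receptors pass chloride, and in immature cortical cells, where internal chloride is high, they can depolarise rather than inhibit. Metabotropic glutamate, GABA-B, muscarinic and most serotonin receptors instead signal through G proteins, and several of these transmitters are known to act on progenitors and migrating neurons before synapses form.

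The libraries held 52611828 to 55615142 counts. Levels are given as CPM, the read counts of a gene relative to the scaled size of its library. Changes are log2 ratios of neurons over NPCs with their standard error, and a gene was called at an adjusted p of 0.05 from edgeR's quasi-likelihood test over all genes. Nes and Dcx, the mouse genes after which the reporters are named, followed the sort. Nes was at 103 and 97.8 CPM in NPCs and 33.1 and 36.4 CPM in neurons. Dcx was at 468 and 493 CPM in NPCs and 1358 and 1441 CPM in neurons. All 14 radial glia markers were higher in NPCs and all 12 projection neuron markers were higher in neurons. The projection neuron markers were still present in NPCs, where they summed to 2966 and 2975 CPM, against 11565 and 11742 CPM in neurons. How far neuronal RNA in the NPC libraries set the NPC levels of receptor genes was not tested. Of 9 intermediate progenitor markers, 8 were higher in NPCs. Markers of other cells were also higher in the NPC libraries. The 8 oligodendrocyte precursor markers other than Ptprz1 summed to 197 and 201 CPM in NPCs and 6.31 and 6.28 CPM in neurons. Ptprz1, a receptor phosphatase gene that radial glia also express, was higher in neurons, at 314 and 328 CPM in NPCs and 464 and 474 CPM in neurons, and with it the list summed to 511 and 529 CPM and to 470.4 and 481 CPM. The 12 endothelial markers summed to 288 to 296 CPM against 9.84 to 10.2 CPM, and the 10 pericyte and mural markers to 215 to 218 CPM against 8.85 to 9.38 CPM. No gene of the oligodendrocyte precursor, endothelial, pericyte or microglia lists had a mean of 0 in NPCs.

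Receptor genes took a larger share of the RNA in neurons. They made up 0.0789% and 0.0810% of all counts in the NPC libraries and 0.217% and 0.216% in the neuron libraries, so the groups did not overlap. The AMPA receptor gene Gria2 alone held 32.3% and 31.9% of receptor CPM in NPCs and 50.8% and 49.1% in neurons. These shares are not divided by gene length. Of the 78 genes, 60 passed the filter on low counts and were tested. Among these, 34 were higher in neurons, where 35.8% of all 15292 genes tested were. Another 11 were higher in NPCs, where 36.9% of all genes were, and 15 did not pass. In either direction 45 were called, or 75.0% of those tested, close to the 72.6% of all genes. A change of at least 2-fold was called for 28 receptor genes toward neurons and 7 toward NPCs, where the shares over all genes were 11.5% and 18.5%. The median log2 change of the tested receptor genes was 0.87, and that of all genes tested was -0.02. A gene with few counts passed the filter only if it was high enough in 1 group, so these counts describe the tested genes and not the whole set. In sorted bulk RNA, fewer cells of a type and less RNA per cell cannot be told apart.

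Calls toward neurons outnumbered those toward NPCs at each level of expression, and no difference between levels was tested. All 22 receptor genes whose mean reached 5 CPM were called, 19 toward neurons and 3 (Grik1, Grik2 and Gabra4) toward NPCs. Of 19 genes at 1 to 5 CPM, 10 were higher in neurons and 6 in NPCs. Of 37 genes under 1 CPM, 19 were tested, with 5 higher in neurons, 2 higher in NPCs and 12 that did not pass. The share of all genes called was not computed by level. A filter of at least 5 CPM in 2 libraries keeps a different set of genes from a mean of 5 CPM. Under that filter, 4342 of all genes were higher in neurons and 4344 in NPCs. The median standard error was 0.07 for receptor genes of at least 5 CPM and 0.43 under 1 CPM, so smaller changes could be called at high levels. The 11 genes higher in NPCs all encode ion channel subunits. Of the 27 genes for G protein-coupled receptors, 20 were tested, and 13 were higher in neurons. By edgeR, DESeq2 and limma-voom alike, 0 of these 20 were higher in NPCs, and the count was also 0 at an unadjusted p under 0.05. These counts cover tested genes only. Grm6, left out by the filter on low counts, had 13.4 and 7.72 counts in NPCs and 1 and 0 in neurons. Over all genes tested, 35.8% were higher in neurons and 36.9% in NPCs. The median standard error was 0.35 for these 20 genes and 0.16 for the channel subunit genes, so smaller changes could be called in the latter. Htr2b and Grm4 had log2 changes of -0.94 and -0.61 and did not pass. With library size as the only scaling, 1 of them, Htr2b, was called higher in NPCs (adjusted p = 0.041).

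**Figure D1:**
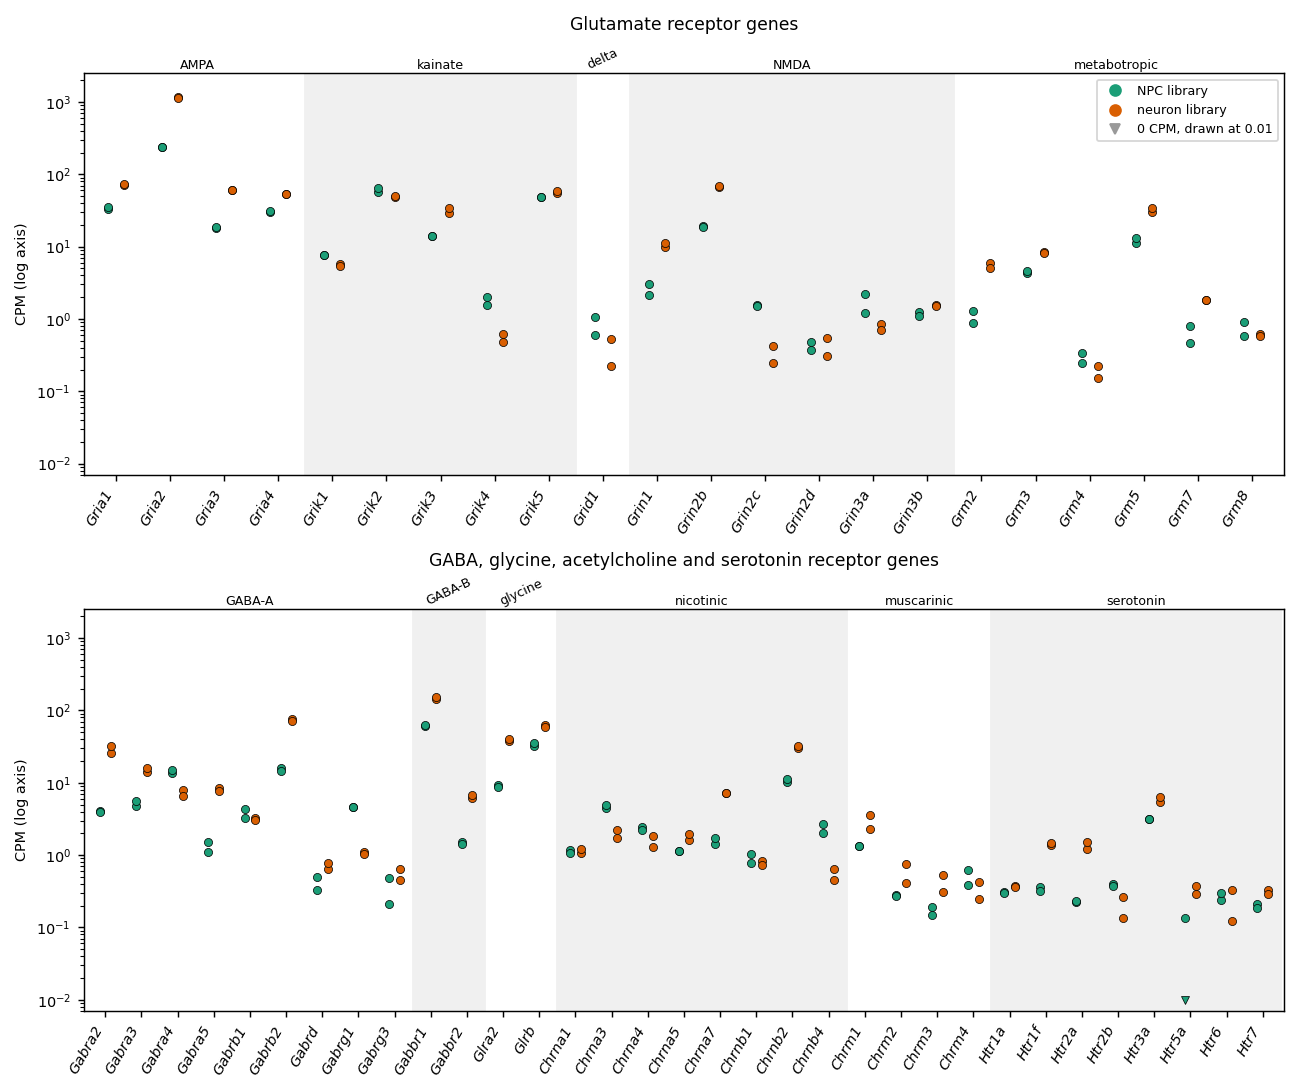
CPM of 55 tested receptor genes in each library on a log axis, glutamate receptor genes above and the others below. Points are single libraries, 2 per group, and CPM are not divided by gene length, so points should be compared within a gene; Gria2 stands highest in every library.

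AMPA receptor genes, whose products carry most fast excitatory current, were all 4 higher in neurons, where 35.8% of all genes tested were. Gria2 encodes the subunit that makes AMPA channels impermeable to calcium once its transcript is edited. It was at 237 and 241 CPM in NPCs and 1186 and 1135 CPM in neurons, far apart in every library, with a log2 change of 2.28 ± 0.06 (adjusted p = 3.8e-15). Gria1, the subunit gene most studied in plasticity, was at 33.3 and 35.5 CPM in NPCs and 71.6 and 74.0 CPM in neurons, for a log2 change of 1.08 ± 0.06. Gria3 and Gria4 had log2 changes of 1.73 ± 0.07 and 0.80 ± 0.06. The genes thus moved by unequal amounts. Per kilobase of exon, Gria2 made up 61.9% and 61.4% of the summed AMPA receptor level in NPCs and 77.9% and 77.0% in neurons. The shares of Gria1 went from 15.8% and 16.4% to 8.52% and 9.09%, and those of Gria4 from 13.3% and 13.0% to 5.83% and 5.98%. Among all 78 receptor genes, Gria2 was the highest per kilobase in both groups, at 22.8 CPM per kilobase in NPCs and 111 in neurons. The part of neuronal RNA in its NPC level was not tested.

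Kainate receptor genes, which encode slower and partly presynaptic glutamate channels, did not share a direction. Grik3 was at 14.0 CPM in both NPC libraries and 29.5 and 34.5 CPM in neurons, for a log2 change of 1.19 ± 0.09. Grik5, an accessory subunit gene that needs a partner to form channels, was at 48.2 and 48.3 CPM in NPCs and 55.8 and 58.4 CPM in neurons, for a log2 change of 0.24 ± 0.06 (adjusted p = 0.0018). The Grik5 call depended on scaling, since with library size only its change was 0.04 with an adjusted p of 0.60. The other members were higher in NPCs. Grik2 was at 57.6 and 65.5 CPM in NPCs and 48.3 and 49.4 CPM in neurons, for a log2 change of -0.33 ± 0.07 (adjusted p = 0.00034). Grik1 was at 7.68 and 7.76 CPM in NPCs and 5.82 and 5.40 CPM in neurons, for a log2 change of -0.46 ± 0.12. Grik4, the other accessory subunit gene, was at 2.03 and 1.56 CPM in NPCs and 0.614 and 0.484 CPM in neurons, for a log2 change of -1.71 ± 0.29. In each of these 5 genes the groups did not overlap, as was so for 86.0% of all genes tested. The kainate genes together summed to 129 and 137 CPM in NPCs and 140 and 148 CPM in neurons, while the AMPA genes summed to 318 and 326 CPM and to 1373 and 1323 CPM.

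NMDA receptors need the obligate subunit from Grin1 together with a Grin2 or Grin3 subunit. Grin1 was at 3.09 and 2.18 CPM in NPCs and 9.97 and 11.2 CPM in neurons, for a log2 change of 2.01 ± 0.15. Grin2b, the Grin2 gene known to prevail before birth, was at 19.5 and 18.4 CPM in NPCs and 67.3 and 68.1 CPM in neurons, for a log2 change of 1.84 ± 0.07. These 2 genes kept a similar proportion, since CPM of Grin2b over Grin1 was 6.31 and 8.46 in NPCs and 6.75 and 6.09 in neurons. Grin2a, known to replace Grin2b after birth, had between 5.17 and 15.6 counts in a library and was not tested. Grin2c, a subunit gene known from cerebellar granule cells and glia, went the other way, at 1.55 and 1.49 CPM in NPCs and 0.246 and 0.426 CPM in neurons, with a log2 change of -2.16 ± 0.33 (adjusted p = 1.9e-05). Grin3a, which lowers calcium entry through NMDA channels, was at 69.1 and 133 counts in NPCs and 42.5 and 35.8 counts in neurons, for a log2 change of -1.14 ± 0.32. The Grin3a call was lost without NPC replicate 2, at -0.62 with an adjusted p of 0.16. Grin2d and Grin3b did not pass, with log2 changes of 0.00 ± 0.40 and 0.40 ± 0.24. The delta receptor genes, which encode relatives that bind cerebellins rather than glutamate at synapses, were low. Grid1 was at 1.08 and 0.603 CPM in NPCs and 0.225 and 0.523 CPM in neurons (-1.15 ± 0.43), and its call was lost without NPC replicate 1 (-0.68, adjusted p = 0.28) or neuron replicate 1 (-0.67, adjusted p = 0.18) and with DESeq2 (adjusted p = 0.084).

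Metabotropic glutamate receptors act through G proteins. Group I receptors, such as that from Grm5, couple to phospholipase C, and the others lower cyclic AMP. Of 8 genes, 7 were tested and 5 were higher in neurons, where 35.8% of all genes tested were. Grm5, the receptor gene of this family with the highest CPM, was at 11.1 and 13.3 CPM in NPCs and 30.4 and 34.4 CPM in neurons, for a log2 change of 1.41 ± 0.10. Grm3 was at 4.27 and 4.66 CPM in NPCs and 8.31 and 8.06 CPM in neurons, for a log2 change of 0.87 ± 0.12. Grm2 had the largest change of the family, from 1.29 and 0.888 CPM in NPCs to 5.88 and 5.13 CPM in neurons, for a log2 change of 2.34 ± 0.20 (adjusted p = 1.3e-08). Grm7 rose by a log2 change of 1.51 ± 0.29. Grm4 and Grm8, at 0.155 to 0.920 CPM, did not pass. Grm6, a receptor gene known from retinal bipolar cells, had 13.4 and 7.72 counts in NPCs and 1 and 0 in neurons and was not tested.

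The sequence before the start of Gria2 and of Grm2 is shown because these genes had the largest changes of the ionotropic and metabotropic glutamate receptors higher in neurons, and because both hold letters of RE1, the element bound by the repressor REST, which is known to silence neuronal genes in other cells. The RefSeq table of GRCm38.p6 held promoters for 55 of the 78 genes, and the 250 bases before each start were searched on both strands. Capitals mark the RE1 core (AGCACC, 2 bases of any kind and GGACAGCGC) and its separate arms (TTCAGCACC on the left and GGACAGCGC on the right, which both overlap the core), and the GC box (GGGCGG). Gria2 lies on the minus strand and the stretch is chr3:80802836-80803085, and that of Grm2, also on the minus strand, is chr9:106656110-106656359.
Gria2: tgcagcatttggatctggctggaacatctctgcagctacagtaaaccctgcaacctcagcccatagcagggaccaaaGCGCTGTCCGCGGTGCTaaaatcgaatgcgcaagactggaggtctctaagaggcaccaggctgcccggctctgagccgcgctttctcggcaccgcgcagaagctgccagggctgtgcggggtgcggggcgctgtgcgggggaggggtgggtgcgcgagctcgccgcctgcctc
Grm2: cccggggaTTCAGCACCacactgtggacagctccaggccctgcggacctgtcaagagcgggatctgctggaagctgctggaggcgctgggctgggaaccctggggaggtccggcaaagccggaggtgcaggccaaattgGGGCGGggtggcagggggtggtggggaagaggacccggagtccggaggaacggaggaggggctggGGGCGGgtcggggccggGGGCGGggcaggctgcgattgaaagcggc
The RE1 core was in the stretch of Gria2, on the opposite strand, and in 4 of 32851 promoters of the same length (0.0122%). Its left arm was in Grm2 and in 0.301% of all promoters, and its right arm in Gria2 and Htr5a and in 0.304% of all promoters. A GC box was in 28 of the 55 receptor genes and in 32.7% of all promoters, a TATA box (TATAAA) in 5 and in 12.4%, the cyclic AMP response element (TGACGTCA) in 0 and in 1.55%, and the NRF1 site in Gabrb1 and in 3.74%. The units differ, since a receptor gene counted if any of its promoters matched (65 promoters for 55 genes). The median share of G and C was 58.8% over receptor promoters and 52.4% over all promoters. The motifs were chosen with the changes known, and a match is a description of the letters and not of binding.

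GABA-A receptors are chloride channels that usually combine alpha, beta and gamma subunits. Of 13 genes, 12 were tested, with 7 higher in neurons, 2 higher in NPCs and 3 that did not pass. The shares over all genes tested were 35.8% higher in neurons and 36.9% higher in NPCs. Gabrb2, a beta subunit gene, was at 15.8 and 14.8 CPM in NPCs and 76.4 and 70.7 CPM in neurons, for a log2 change of 2.26 ± 0.07 (adjusted p = 4.6e-14), and its groups lay far apart. Among the alpha subunit genes, Gabra2 was at 4.12 and 3.99 CPM in NPCs and 25.8 and 32.4 CPM in neurons, for a log2 change of 2.84 ± 0.12. Gabra5, known from extrasynaptic receptors, was at 1.11 and 1.51 CPM in NPCs and 8.38 and 7.69 CPM in neurons (2.61 ± 0.17), and Gabra3 had a log2 change of 1.51 ± 0.12.

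In contrast to those subunits, Gabra4 and Gabrg1 were higher in NPCs. Gabra4 was at 13.7 and 15.0 CPM in NPCs and 7.97 and 6.63 CPM in neurons, for a log2 change of -0.98 ± 0.11 (adjusted p = 6.5e-07). Gabrg1 was at 4.67 and 4.59 CPM in NPCs and 1.11 and 1.03 CPM in neurons, for a log2 change of -2.12 ± 0.19 (adjusted p = 2.3e-08). Gabra4 had the highest level per kilobase of any alpha subunit gene in NPCs, at 3.43 CPM per kilobase against 1.36 for Gabra3, which was next. In neurons Gabra2 was highest at 4.97 CPM per kilobase, followed by Gabra3 at 3.85 and Gabra5 at 2.70, with Gabra4 at 1.74. Gabrb1 did not pass, at 4.31 and 3.25 CPM in NPCs and 3.30 and 3.08 CPM in neurons, though it passed with library size only (-0.45, adjusted p = 0.026). Gabrd and Gabrg3, at 0.208 to 0.775 CPM, did not pass, and Gabra6 had at most 4 counts in a library.

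**Figure D2:**
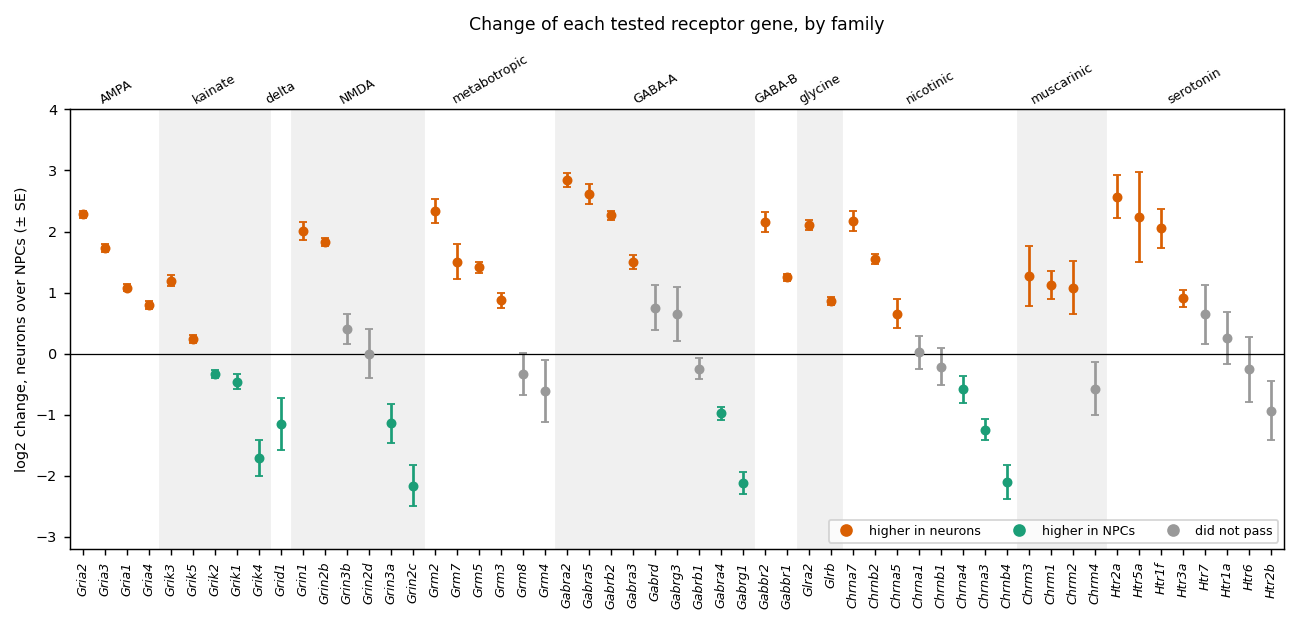
Log2 change of 55 tested receptor genes, neurons over NPCs, with bars of 1 standard error and genes ordered by change within each family. AMPA, GABA-B and glycine receptor genes all lie above 0, and the 11 genes higher in NPCs lie in the kainate, delta, NMDA, GABA-A and nicotinic families.

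GABA-B receptors are pairs of the products of Gabbr1, which binds GABA, and Gabbr2, which couples to the G protein. Gabbr1 was at 61.8 and 62.6 CPM in NPCs and 143 and 153 CPM in neurons, for a log2 change of 1.25 ± 0.06. Gabbr2 was at 1.51 and 1.41 CPM in NPCs and 6.18 and 6.88 CPM in neurons, for a log2 change of 2.16 ± 0.16. Per kilobase, Gabbr1 exceeded Gabbr2 35.6-fold and 38.7-fold in the NPC libraries and 20.1-fold and 19.4-fold in the neuron libraries. For glycine receptors, Glra2, the alpha subunit gene known from fetal tissue, was at 9.20 and 8.88 CPM in NPCs and 37.4 and 40.7 CPM in neurons, for a log2 change of 2.11 ± 0.08. Glrb, the beta subunit gene, whose product binds the scaffold gephyrin, was at 32.0 and 35.5 CPM in NPCs and 63.7 and 58.8 CPM in neurons, for a log2 change of 0.86 ± 0.07. Glra1, Glra3 and Glra4 had between 0 and 2.74 counts in a library and were not tested.

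Nicotinic receptors are cation channels opened by acetylcholine. Of 13 genes, 8 were tested, with 3 higher in neurons, 3 higher in NPCs and 2 that did not pass. Each direction held 37.5% of those tested, close to the 35.8% and 36.9% of all genes higher in neurons and in NPCs. Chrnb2, the beta subunit gene of most brain nicotinic receptors, was at 10.3 and 11.1 CPM in NPCs and 30.3 and 32.6 CPM in neurons, for a log2 change of 1.55 ± 0.08. Its exons overlap those of Adar on the opposite strand in the GENCODE annotation, and Adar was at 39.5 and 40.5 CPM in NPCs and 54.2 and 55.2 CPM in neurons, so part of the Chrnb2 counts could not be told apart from Adar. Chrna7, whose product forms channels on its own, was at 1.44 and 1.74 CPM in NPCs and 7.23 and 7.13 CPM in neurons, for a log2 change of 2.17 ± 0.16. Chrna5, an accessory subunit gene, had a log2 change of 0.66 ± 0.24, and its call was lost without NPC replicate 1 (adjusted p = 0.073), NPC replicate 2 (0.069) or neuron replicate 2 (0.15), and with DESeq2 (0.089) or library size only (0.10).

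Chrna3 and Chrnb4, subunit genes of the ganglionic type of nicotinic receptor, were higher in NPCs. Chrna3 was at 4.43 and 4.89 CPM in NPCs and 2.21 and 1.72 CPM in neurons, for a log2 change of -1.25 ± 0.17 (adjusted p = 7.1e-06). Chrnb4 was at 2.67 and 2.03 CPM in NPCs and 0.451 and 0.639 CPM in neurons, for a log2 change of -2.10 ± 0.28 (adjusted p = 3.6e-06). Chrna4, the usual partner of Chrnb2 in the mature brain, was at 2.45 and 2.25 CPM in NPCs and 1.84 and 1.30 CPM in neurons, for a log2 change of -0.58 ± 0.22. The Chrna4 call was lost without NPC replicate 1 (-0.52, adjusted p = 0.11), without neuron replicate 2 (-0.34, adjusted p = 0.23) and with DESeq2 (adjusted p = 0.10). The muscle-type genes Chrna1 and Chrnb1 did not pass, with log2 changes of 0.02 ± 0.26 and -0.22 ± 0.30. Chrna2, Chrna6 and Chrnb3 had 0 counts in every library, which allows up to 3 counts or 0.0503 to 0.0614 CPM per library, a limit that covers counting error only. Chrna9 and Chrna10 had at most 2.25 counts.

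Muscarinic and serotonin receptor genes were low throughout. Chrm1, coupled to phospholipase C, was at 1.34 and 1.36 CPM in NPCs and 3.60 and 2.29 CPM in neurons, for a log2 change of 1.12 ± 0.23. Chrm2 and Chrm3 were called at 1.08 ± 0.43 and 1.28 ± 0.49. Chrm2 was at 0.278 and 0.268 CPM in NPCs and 0.758 and 0.407 CPM in neurons. Its call was lost without NPC replicate 1 (adjusted p = 0.10), NPC replicate 2 (0.12) or neuron replicate 1 (0.41), and with DESeq2 (0.14), library size only (0.078), upper-quartile factors (0.051) or limma-voom (0.050). The Chrm3 call was lost without NPC replicate 1 (0.073), NPC replicate 2 (0.15) or neuron replicate 2 (0.31), and with DESeq2 (0.15), library size only (0.059) or no filter on low counts (0.059). Chrm4 did not pass and Chrm5 had at most 9 counts. Among the serotonin receptor genes, Htr3a, which encodes a cation channel known from a class of cortical interneurons, was at 3.18 CPM in both NPC libraries and 5.51 and 6.39 CPM in neurons, for a log2 change of 0.90 ± 0.15. Htr1f was at 0.365 and 0.318 CPM in NPCs and 1.39 and 1.45 CPM in neurons, for a log2 change of 2.05 ± 0.32. Htr2a, coupled to phospholipase C and known as the target of psychedelic drugs, had 12.9 and 13.9 counts in NPCs and 59.8 and 78.6 in neurons, a log2 change of 2.57 ± 0.35. Htr5a was called on 0 and 8 counts in NPCs and 18 and 15 in neurons, and its call was lost without NPC replicate 1 (adjusted p = 0.14) and with DESeq2 (adjusted p = 0.064). Htr1a, Htr2b, Htr6 and Htr7 did not pass, and the other 6 serotonin receptor genes, with at most 12.8 counts in a library, were not tested.

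Ratios between subunit genes of a library do not depend on how libraries are scaled, and their change does not depend on gene length. CPM of Grin2b over Grin2c was 12.6 and 12.4 in NPCs and 274 and 159.7 in neurons, a shift of 17.4-fold between the group means that rests on 12.2 and 22.0 counts of Grin2c in neurons. Gabra2 over Gabra4 was 0.300 and 0.267 in NPCs, where Gabra4 was the higher, and 3.24 and 4.89 in neurons, where Gabra2 was. Chrna7 over Chrna3 also crossed 1, from 0.325 and 0.356 to 3.27 and 4.13. Chrnb2 over Chrnb4 went from 3.84 and 5.50 to 67.3 and 51.0, which rests on 22.0 and 33.3 counts of Chrnb4 in neurons. Part of the Chrnb2 counts could not be told apart from Adar. Other pairs stayed closer. Grik2 over Grik1 was 7.50 and 8.45 in NPCs and 8.30 and 9.14 in neurons, where the groups overlapped. With 2 libraries a group, an exact permutation test of a ratio cannot go below a p of 0.333, so none is given.

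**Figure D3:**
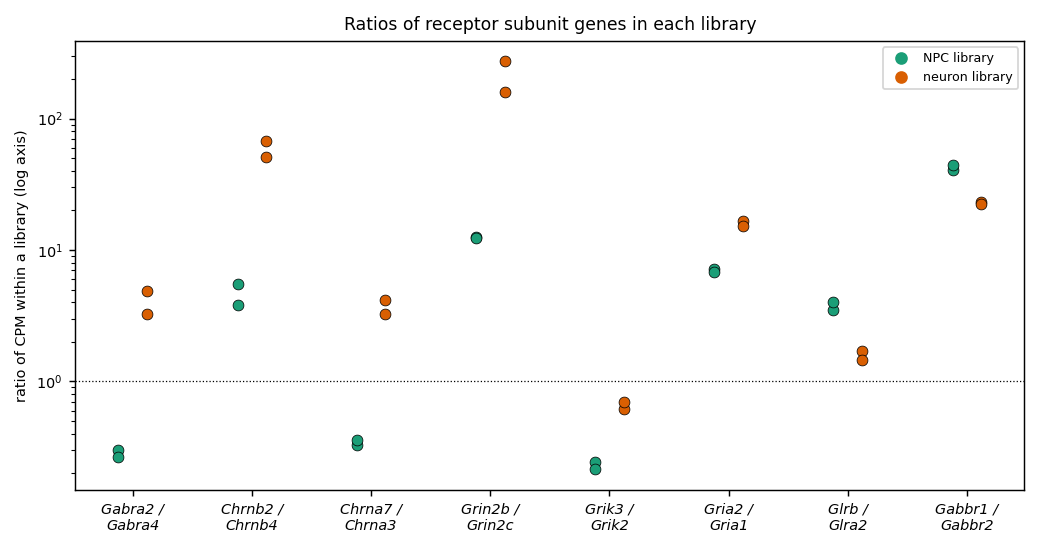
Ratio of CPM of 8 pairs of receptor genes within each library on a log axis, with a dotted line at 1. Points are single libraries, 2 per group; Gabra2 over Gabra4 and Chrna7 over Chrna3 lie below 1 in NPCs and above 1 in neurons.

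Many GABA-A and nicotinic receptor genes lie next to each other on the chromosome, and neighbours did not always move together. The order was taken from protein-coding genes of RefSeq GRCm38.p6. On chromosome 7, Gabra5 was higher in neurons and its neighbour Gabrg3 did not pass. On chromosome 5, the order was Gabrg1, Gabra2, the unrelated gene Cox7b2, Gabra4 and Gabrb1, and Gabra2 alone of these 4 receptor genes was higher in neurons, by 2.84. Its neighbour Gabrg1 had a log2 change of -2.12. On chromosome 9, Chrna5, Chrna3 and Chrnb4 lie in this order, with log2 changes of 0.66, -1.25 and -2.10. On chromosome 3, Gria2 and Glrb are neighbours and were both higher in neurons.

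**Figure D4:**
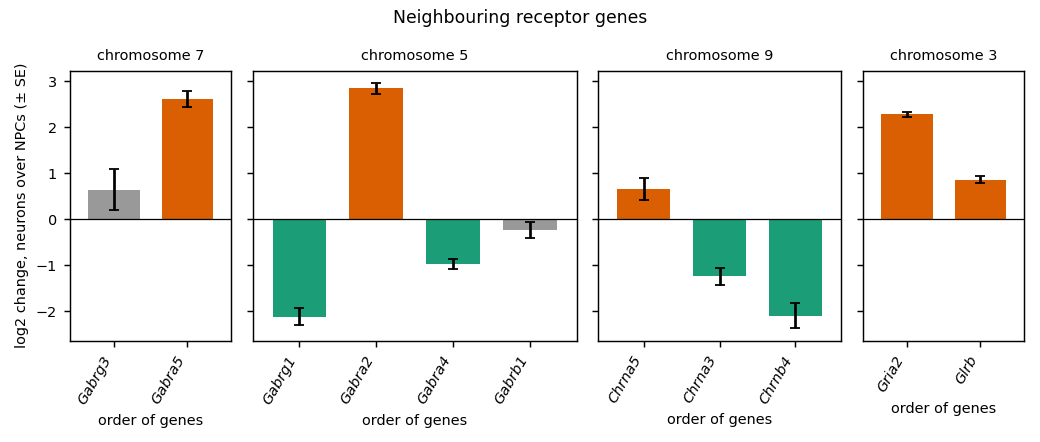
Log2 change, neurons over NPCs, of receptor genes that lie next to each other, in their order along each of 4 chromosomes. Bars start at 0 with error bars of 1 standard error, orange for higher in neurons, green for higher in NPCs and grey for not passing; the chromosome 5 and chromosome 9 groups hold bars on both sides of 0.

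The stretches before Gabra2 and Gabra4 are shown because these genes of the chromosome 5 group moved in opposite directions. Both lie on the minus strand, at chr5:71095850-71096099 and chr5:71658309-71658558, in RefSeq GRCm38.p6, and capitals mark the GC box on either strand.
Gabra2: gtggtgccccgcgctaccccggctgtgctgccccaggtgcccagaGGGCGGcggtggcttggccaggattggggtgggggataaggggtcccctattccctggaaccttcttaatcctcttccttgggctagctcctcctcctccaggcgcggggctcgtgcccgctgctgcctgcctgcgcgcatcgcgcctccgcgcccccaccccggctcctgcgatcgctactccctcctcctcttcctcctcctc
Gabra4: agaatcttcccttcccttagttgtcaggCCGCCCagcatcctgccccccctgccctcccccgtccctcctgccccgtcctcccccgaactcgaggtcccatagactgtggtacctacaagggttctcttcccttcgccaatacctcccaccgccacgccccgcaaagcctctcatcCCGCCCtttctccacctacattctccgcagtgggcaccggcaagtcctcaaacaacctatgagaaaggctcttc
Gabra2 held 1 GC box and Gabra4 held 2, and neither stretch held the RE1 core, an RE1 arm, the cyclic AMP response element, the NRF1 site or the TATA box in the letters searched. The share of G and C was 70.0% for Gabra2 and 61.2% for Gabra4, where the median was 52.4% over all promoters and 58.8% over receptor promoters.

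Genes whose products bind, traffic or anchor the receptors were taken from lists of names, chosen with earlier results of these data known. Their counts stand beside 35.8% of all genes tested that were higher in neurons and 36.9% that were higher in NPCs. Of 24 partners of ionotropic glutamate receptors, 21 rose in neurons and 1 fell, and the median log2 change was 1.32. Dlg2, which encodes a postsynaptic scaffold, had a log2 change of 3.18 ± 0.11, and Cnih2, an AMPA receptor auxiliary subunit gene, one of 2.13 ± 0.05. Neto2, an auxiliary subunit gene of kainate receptors, was at 108 and 114 CPM in NPCs and 336 and 360 CPM in neurons (1.65 ± 0.06). The member higher in NPCs was Cacng5, an AMPA receptor auxiliary subunit gene, at 26.5 and 28.1 CPM in NPCs and 7.62 and 5.39 CPM in neurons (-2.07 ± 0.12), named after its value was seen. Of 11 partners of metabotropic glutamate receptors, 7 were higher in neurons and 3 in NPCs (median 0.51). Among them the calcium release channel gene Itpr1 and the scaffold gene Homer1 had log2 changes of 1.66 ± 0.06 and 1.37 ± 0.06, and the G protein gene Gnaq, with the most CPM, one of 0.76 ± 0.05.

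Of 13 partners of GABA-A and glycine receptors, 10 were higher in neurons and 2 in NPCs (median 0.65). Gabarap had a log2 change of 0.24 ± 0.06 and Hap1 one of -2.04 ± 0.11. Of 10 GABA-B partners, 8 were tested, 6 higher in neurons and 2 in NPCs (median 0.79). Kctd12, an auxiliary subunit gene, had a log2 change of 2.47 ± 0.08 and Gnai2, a G protein gene of many cell types, one of -1.27 ± 0.05. Of 8 nicotinic partners, 4 were higher in neurons and 3 in NPCs (median 0.11), with Ly6h at 2.49 ± 0.06 and Tmem35, which encodes an assembly chaperone, at 1.54 ± 0.07. Of 5 chloride cotransporter genes, 1 rose in neurons and 3 fell (median -0.51). Slc12a2, which imports chloride, was at 77.7 and 82.1 CPM in NPCs and 58.0 and 54.4 CPM in neurons (-0.51 ± 0.06), and Slc12a7 was at 53.1 and 53.8 CPM and at 22.4 and 24.1 CPM. Slc12a5, which extrudes chloride in mature neurons, was at 2.21 to 2.65 CPM in all libraries and did not pass. Of 24 genes of transmitter synthesis, release and uptake, 19 were tested, 9 higher in neurons and 6 in NPCs (median 0.37). The neuronal glutamate transporter gene Slc1a1 had a log2 change of 2.40 ± 0.09 and the glial one, Slc1a3, with the most CPM, one of -2.02 ± 0.06.

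**Figure D5:**
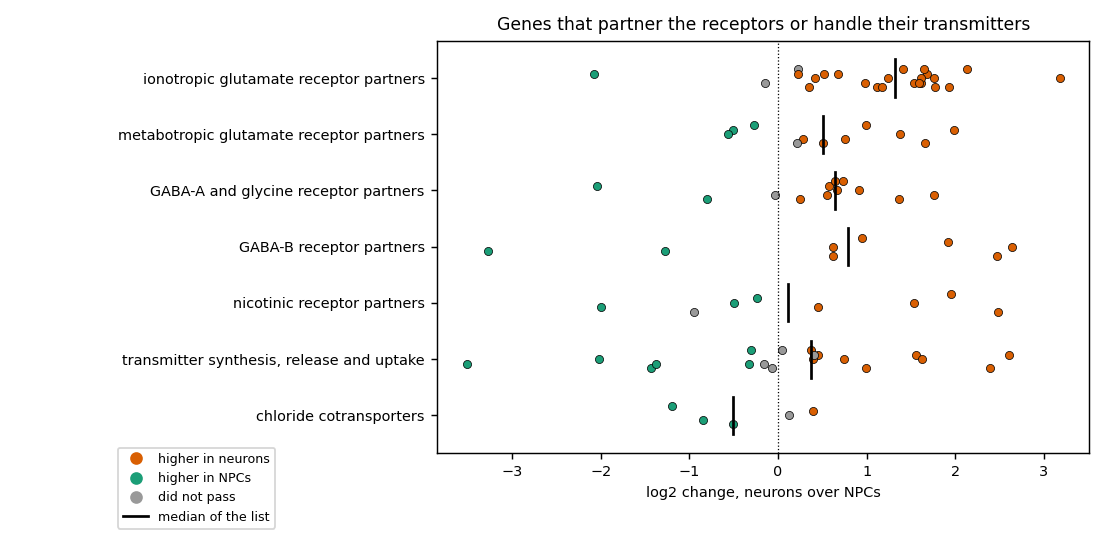
Log2 change, neurons over NPCs, of tested genes in 7 lists of receptor partners and transmitter handling, with the median of each list as a black bar. The list medians run from -0.51 for chloride cotransporters to 1.32 for partners of ionotropic glutamate receptors.

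Markers of other cells moved with these results. Beside the receptor genes higher in NPCs, 8 of 9 oligodendrocyte precursor markers, all 12 endothelial markers and all 10 microglia markers were higher in NPCs, and 8 of 9 tested pericyte and mural markers were. All 8 erythroid markers found were too, at summed levels of 2704 and 2269 CPM in NPCs and 378 and 376 CPM in neurons. Hba-a1 and Hba-a2 had nearly equal values in every library, as did Hbb-b1 and Hbb-b2, so these sums may count the same reads more than once. Olig1 was at 44.5 and 43.3 CPM in NPCs and 0.451 and 0.678 CPM in neurons, and Cldn5 at 47.5 and 45.8 CPM and 0.983 and 1.26 CPM. Their part in the levels of Grik4, Gabrg1, Grin2c, Grin3a, Chrna3 and Chrnb4 was not tested. Beside the receptor genes higher in neurons, 5 of 7 tested Cajal-Retzius markers were higher in neurons, and the list summed to 56.8 to 57.6 CPM in NPCs and 200.0 to 209.7 CPM in neurons. The 14 interneuron markers summed to 289 to 297 CPM in NPCs and 266 to 283 CPM in neurons, with 6 higher in neurons and 4 in NPCs, and the 8 choroid plexus markers to at most 3.08 CPM. The part of these cells in the receptor levels was not tested either.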

How the data were processed

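Total RNA of sorted NPCs and neurons was sequenced, 2 libraries per group, grouped by their titles. The authors deposited 1 table of estimated counts per gene, not scaled between libraries. Build mm9 and the tools CASAVA 1.9, SAMtools 0.1.18 and TopHat 1.2.0 are named in the submitters' processing notes. The sources used here do not give the counting tool, the annotation or the use of strand, so overlapping and antisense genes are uncertain (19 receptor genes share exon bases with another gene in GENCODE M21).

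Counts were rounded. The filter filterByExpr left 15292 of 23240 rows. Libraries were scaled with TMM factors (0.928 to 1.08), and the groups were tested in R 4.3.3 with edgeR 4.0.16 (glmQLFit and glmQLFTest, quasi-likelihood, two-sided), adjusting p-values over all genes by Benjamini-Hochberg. Standard errors were obtained as the log2 change over the root of the F statistic. CPM per kilobase used the union of protein-coding exons in GENCODE M21 (GRCm38), which is not the authors' build. Duplicates differed by more than sampling noise (chi-square per gene 4.56 and 14.1). No correction was made for gene length or GC content. The test was checked on simulated data.

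The genes and lists were chosen with earlier results of these data known. Values per library are given for the 2 receptor genes with the highest CPM of each family, those called higher in NPCs, and the 6 highest and 6 lowest log2 changes among called genes of at least 1 CPM, and for some others chosen after their values were seen. From each partner list, the 2 genes with the smallest p and the 1 with the highest CPM are named. Some genes these rules name are not reported here. Motifs and ratios were also chosen after values were seen. Alternatives were DESeq2 1.42.0, limma-voom (limma 3.58.1), other scalings and filters, a test against 1.5-fold, a replicate block and leaving out each library.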

Additional observations from a re-analysis of the deposited data

How the results depend on the processing

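The count of receptor genes higher in neurons lay between 25 and 34 under every alternative run. The count higher in NPCs, 11, was 13 with library size only and 7 when a change of more than 1.5-fold was asked for. It was 3 with a filter of 5 CPM, under which only 28 receptor genes were tested. The median log2 change of 0.87 became 1.58 with the filter of 5 CPM, 0.66 with library size only and 0.77 with upper-quartile factors. The median log2 change of all genes moved from -0.02 to -0.23 with library size only and to -0.12 with upper-quartile factors. With library size only, genes higher in neurons fell from 49.2% to 33.5% of all calls, and from 75.6% to 69.8% of receptor calls. Leaving out 1 library gave 30 to 33 genes higher in neurons, 9 to 11 higher in NPCs and medians of 0.80 to 0.94.

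Of the 41 called receptor genes reported here, 33 kept their direction and their call under every alternative in which they were tested, apart from the test against 1.5-fold, for which counts of calls alone were compared. The genes that lost their call under one of these were Grik5, Grin3a, Grid1, Chrna4, Chrna5, Chrm2, Chrm3 and Htr5a. With library size only, Gabrb1 and Htr2b were also called. Among the genes reported here, signs turned for 4 that had not passed. Chrna1 was at -0.080 with upper-quartile factors, -0.19 with library size only and -0.061 to 0.11 with 1 library left out (-0.038 without NPC replicate 2, -0.061 without neuron replicate 2). Grin2d was at -0.10 with upper-quartile factors, -0.21 with library size only, -0.035 with limma-voom, -0.016 with the replicate block and -0.46 to 0.35 with 1 library left out (-0.19 without NPC replicate 2, -0.46 without neuron replicate 2). With 1 library left out, Grm8 ranged from -0.62 to 0.025 (without NPC replicate 1) and Htr6 from -1.13 to 0.28 (without neuron replicate 1). The cause was not tested.

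Replicate numbers are shared between groups, but no label says that they mark a shared litter or day. Same-numbered deviations correlated at 0.0186 across genes. The replicate block gave 34 genes higher in neurons and 11 in NPCs and changed no call. Depth limits the genes under 1 CPM, whose median standard error was 0.43 against 0.07 for those of at least 5 CPM. Where 1 library is left out of a group, the remaining one is assumed to vary like the other group. The groups did not vary alike, since the chi-square per gene was 4.56 between NPC duplicates and 14.1 between neuron duplicates. Calls made without an NPC library and without a neuron library are therefore not comparable.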
